A study of Mus musculus with 2 samples.

Results

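Kinesins are motor proteins that use ATP to move along microtubules or to take microtubules apart. Mitotic kinesins build the spindle and separate chromosomes and daughter cells, ciliary kinesins carry building blocks along the axoneme or sit in it, and transport kinesins move vesicles, organelles and ribonucleoprotein particles through the cytoplasm. In the testis all of these tasks occur in germ cells, in meiotic division and in the growth of the sperm flagellum. FMRP, the product of *Fmr1*, is an RNA-binding protein known for its association with polyribosomes. The study concerned the kinesin KIF6 and RNA-binding proteins, FMRP among them, in the assembly of the sperm flagellum. Here the transcripts of the kinesin superfamily itself were followed through an FMRP precipitation.

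The members were the rows of the deposited table whose symbol begins with Kif, Kifc or Klc followed by a digit, or is *Kifap3*. They came to 36 of 4788 rows and to 35 genes, because *Kif11* stands in the table with 2 rows. RNA immunoprecipitation sequencing (RIP-seq) was performed on testis of adult wild-type male mice, with 1 library of the RNA in the lysate (input) and 1 library of the RNA precipitated with an anti-FMRP antibody (FMRP RIP). Neither the strain nor the number of animals is given in the labels, and no control antibody library was analysed here. Whole testis was lysed, so a transcript carried by few cells and one present at low level in many cells cannot be told apart.

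All 4788 rows are protein-coding genes that the authors had marked as higher in the FMRP RIP. A higher level in the FMRP RIP is therefore what selected every member, and it is not a result. What can be described is how far each member was raised, how the members were ordered, and which kinesin genes have no row. With 1 library per group there was no replicate check and no test between the libraries. Levels are given as CPM, the reads of a gene scaled to a common library size. The totals recovered from the table were 30849871 reads (input) and 36506932 reads (FMRP RIP). Listed genes held 14.2% of input reads and 55.2% of FMRP RIP reads. Of the testis marker lists, 3 of 8 spermatocyte genes (37.5%) and 1 of 8 spermatid genes (12.5%) had a row. Of the Sertoli and Leydig lists, 0 of 8 and 0 of 6 genes did. Over all protein-coding genes of the RefSeq annotation, 21.3% had a row, so such short lists show no pattern between cell types. The tissue label could not be checked against genes without a value.

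For each member, recovery is log2((FMRP RIP + 1)/(input + 1)) with a pseudocount of 1 CPM, which understates the change of low genes. Beside it stands the plain ratio of the CPM values with an exact Clopper-Pearson 95% interval from the rounded reads, which covers counting error only. CPM is not divided by transcript length, so levels are compared between libraries for the same gene. Between genes they are compared only as ranks, in the correlations with input CPM.

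The 35 kinesin genes ranged in recovery from 0.69 for *Kif5a* to 3.23 for *Kif27*, with a median of 1.47. Recovery was above 1, a doubling after the pseudocount, for 29 of the 35 genes, and 70.1% of all listed rows passed the same limit. Above 2 lay 11 of the 35 genes, beside 25.0% of all listed rows. The median of all listed rows was 1.35, with quartiles of 0.92 and 2.001. The highest value of any listed row was 6.08. Ratios lay between 1.65 and 9.59. They were 3 or more for 20 genes, from 2 to under 3 for 12, and under 2 for 3, namely *Kifc3*, *Kif5a* and *Kif1bp*. The shares of all listed rows in these ratio ranges were not analysed here, so the counts describe the members only. Per the paper, targets had to pass a minimum fold change in edgeR, so the lower end of these ratios is bounded by that selection. Summed over the 35 genes, 1212 CPM in the input became 4852 CPM in the FMRP RIP.

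**Figure D1:**
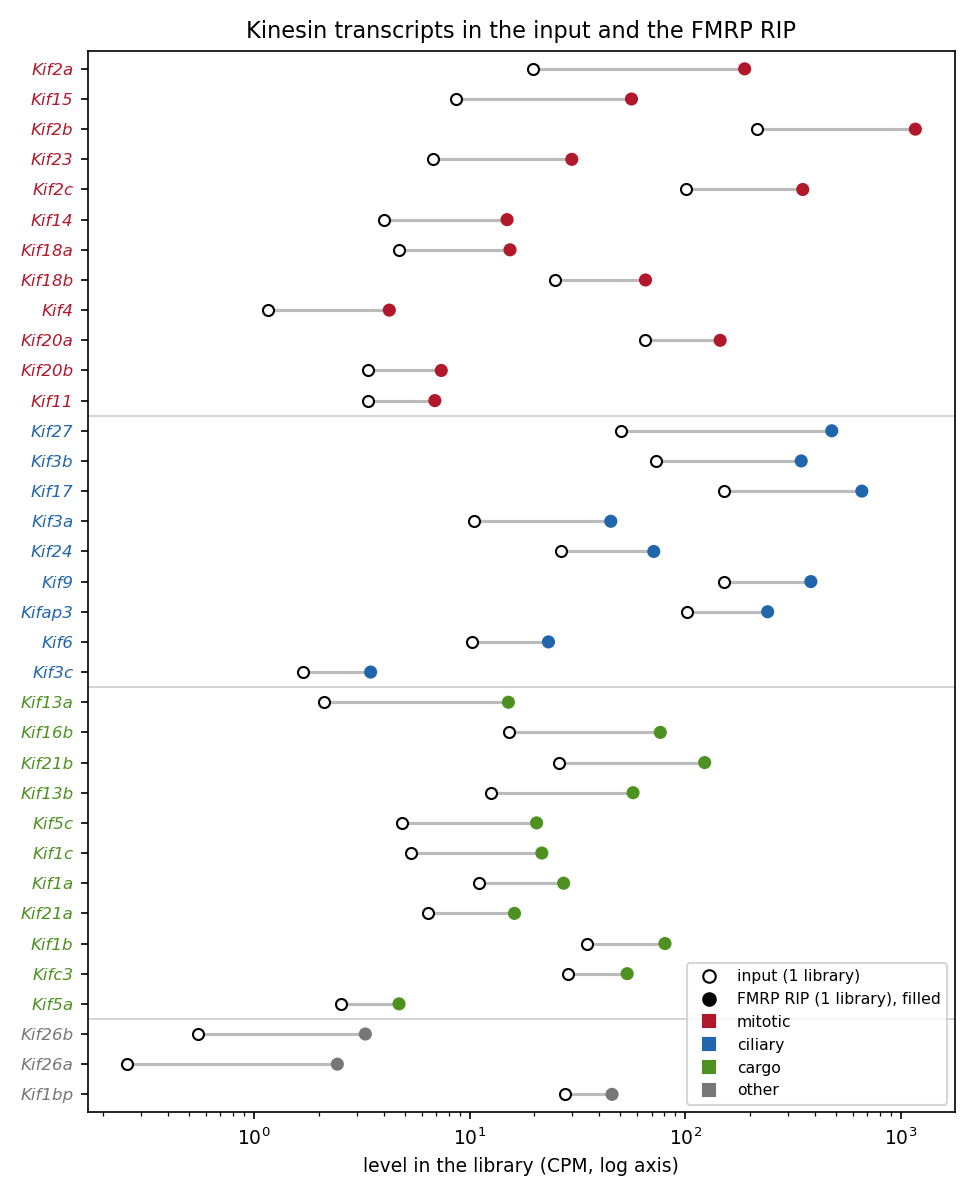
Level of each of the 35 kinesin genes in the input (open circle) and the FMRP RIP (filled circle), in CPM on a log axis, 1 library each, with genes coloured by class and ordered by recovery within it. *Kif2a* went from 19.7 to 188.7 CPM and *Kif27* from 50.2 to 478.3 CPM, the widest steps among their classes, whereas *Kif1bp* went from 27.8 to 45.8 CPM.

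Among 12 mitotic kinesins, *Kif2a*, *Kif15* and *Kif2b* had the highest recoveries. *Kif2a* and *Kif2b* are microtubule-depolymerising kinesin-13 motors, while *Kif2c* of the same subfamily was lower. *Kif2a*, which shortens microtubules at spindle poles and in neurons, went from 19.7 to 188.7 CPM between the input and the FMRP RIP. Its ratio of 9.59 (8.83 to 10.4) was the highest of all members, and its recovery was 3.20, rank 230 of the listed rows. It lies on chromosome 13 from 106958996 to 107022126 (mm10). *Kif2b*, a spindle depolymerase encoded on chromosome 11 from 91575315 to 91577558, went from 214.8 to 1168 CPM, a ratio of 5.44 (5.30 to 5.58) and a recovery of 2.44. *Kif2c*, which corrects faulty kinetochore attachments, went from 101.1 to 350.9 CPM, a ratio of 3.47 (3.34 to 3.61). The counting intervals of these 3 related motors did not overlap, and their order was *Kif2a*, *Kif2b*, *Kif2c*.

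The spindle-building pair parted in the same class. *Kif15*, which holds spindle poles apart, went from 8.69 to 56.4 CPM, a ratio of 6.49 (5.71 to 7.40). *Kif11*, the kinesin-5 motor known as Eg5 that works beside it, went from 3.37 to 6.91 CPM, a ratio of 2.05 (1.62 to 2.60). The 2 *Kif11* rows, on chromosome 19 and on an alternate scaffold, carry identical values with fractions of reads. How reads shared by these copies were counted is not given in the sources used here, and the value of 1 row was used. With both rows summed, the recovery of *Kif11* was 0.94 in place of 0.85.

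The kinesin-6 motors of the central spindle gave another spread. *Kif23*, the motor of centralspindlin, went from 6.77 to 29.8 CPM, a ratio of 4.40 (3.79 to 5.13). *Kif20a*, which brings the chromosomal passenger complex to the midzone, went from 64.9 to 145.3 CPM, a ratio of 2.24 (2.13 to 2.36). *Kif20b*, another cytokinesis motor, went from 3.37 to 7.40 CPM, a ratio of 2.19 (1.74 to 2.78). *Kif23* lay above both, and the intervals of *Kif20a* and *Kif20b* overlapped. *Kif20a* shares 56.9% of its span with *Cdc23* and 2.90% with *Brd8*, neither of which has a row. Whether the counting used strand is not given in the sources used here.

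The remaining mitotic kinesins had intermediate to low ratios. *Kif14*, a cytokinesis motor, went from 3.996 to 14.9 CPM, a ratio of 3.74 (3.07 to 4.59). *Kif4*, a chromosome-bound motor, rested on 36 input reads and went from 1.17 to 4.25 CPM, a ratio of 3.64 with a wide interval of 2.52 to 5.38. The kinesin-8 motors trim microtubule plus ends, *Kif18a* at kinetochores and *Kif18b* on astral microtubules. *Kif18a* went from 4.69 to 15.4 CPM, a ratio of 3.29 (2.72 to 3.96), and *Kif18b* from 24.8 to 65.5 CPM, a ratio of 2.64 (2.43 to 2.87). The intervals of this pair overlapped.

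Ciliary kinesins fell into 3 steps. *Kif27*, a kinesin-4 protein of motile cilia on chromosome 13 from 58287502 to 58359122, stood alone at the top. It went from 50.2 to 478.3 CPM, a ratio of 9.52 (9.04 to 10.03) and the highest recovery of all members, 3.23, at rank 222. The next step held kinesin-2 motors, which include the anterograde motor of intraflagellar transport. *Kif3b* went from 72.9 to 345.2 CPM, a ratio of 4.74 (4.53 to 4.96), and its heterodimer partner *Kif3a* from 10.5 to 45.2 CPM, a ratio of 4.32 (3.83 to 4.88). *Kif17*, the homodimeric kinesin-2 with a testis isoform known from spermatids, went from 150.6 to 659.6 CPM, a ratio of 4.38 (4.24 to 4.52). The interval of *Kif3a* overlapped those of *Kif3b* and *Kif17*. By the position in its row, *Kif17* shares 20.4% of its span with *Sh2d5*, which has no row. In the RefSeq annotation *Kif17* starts at 138262251 and *Sh2d5* ends at 138260968, so they do not overlap there.

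The kinesin-2 complex was not raised evenly. *Kifap3*, the non-motor subunit that joins the *Kif3a* and *Kif3b* products, went from 102.4 to 241.3 CPM. Its ratio of 2.36 (2.26 to 2.46) lay below the intervals of both motor subunits. *Kif3c*, an alternative partner of *Kif3a* best known from neurons, went from 1.69 to 3.48 CPM, a ratio of 2.06 (1.48 to 2.91). Its recovery of 0.74 was the lowest in the class and rested on 52 input reads.

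The kinesin-9 pair and *Kif24* shared the lowest step with *Kifap3* and *Kif3c*. *Kif9*, a motor of the axonemal central pair on chromosome 9 from 110476958 to 110525179, went from 151.5 to 382.7 CPM, a ratio of 2.53 (2.44 to 2.61). *Kif6*, the motor at the centre of the study, on chromosome 17 from 49615136 to 49909847, went from 10.2 to 23.2 CPM, a ratio of 2.27 (1.99 to 2.59). Their intervals overlapped, and a difference between the kinesin-9 genes was not tested. *Kif24*, a kinesin-13 that restrains cilium formation at the mother centriole, went from 26.5 to 71.5 CPM, a ratio of 2.69 (2.49 to 2.92). *Kif6* ranked 3072 and *Kif9* 2449 of the listed rows by recovery, both past the middle of the table, and their recoveries were 1.11 and 1.33.

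**Figure D2:**
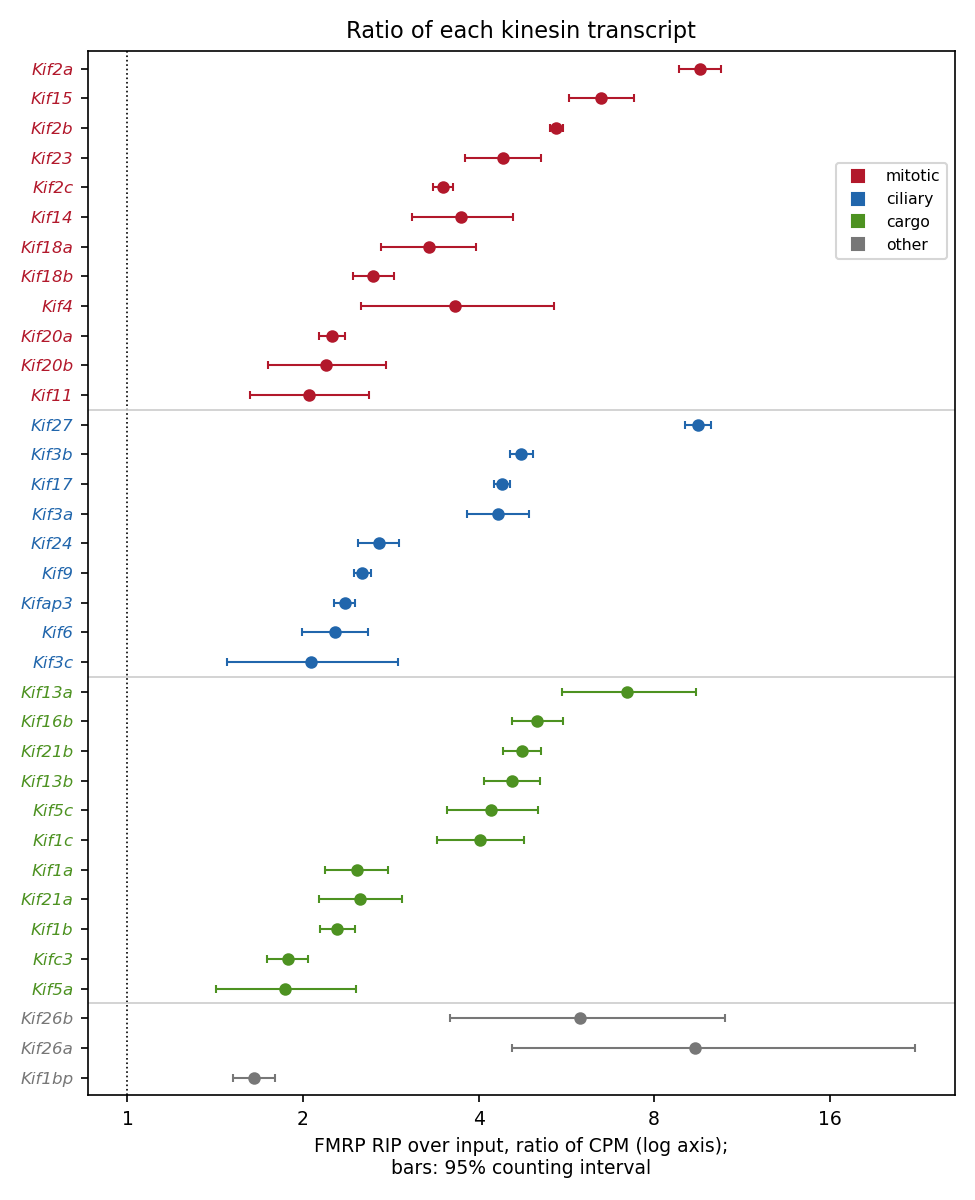
Ratio of FMRP RIP to input CPM for each kinesin gene on a log axis, with exact 95% counting intervals as bars and a dotted line at no difference. *Kif2a* (9.59) and *Kif27* (9.52) stood apart from the rest of their classes, and *Kif26a*, with 8 input reads, had the widest interval, 4.57 to 22.4.

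Cargo-transport kinesins separated into a higher and a lower set with no member between ratios of 2.51 and 4.02. The higher set was led by kinesin-3 motors of the endosomal system. *Kif13a*, which moves recycling endosomes, went from 2.11 to 15.1 CPM, a ratio of 7.19 (5.55 to 9.45). *Kif16b*, an early-endosome motor, went from 15.2 to 76.7 CPM, a ratio of 5.05 (4.57 to 5.58), and *Kif13b* from 12.6 to 57.3 CPM, a ratio of 4.56 (4.09 to 5.09). *Kif1c*, linked to Golgi traffic and to mRNA transport, went from 5.38 to 21.6 CPM, a ratio of 4.02 (3.40 to 4.78). The kinesin-3 motors best known for axonal cargo were lower. *Kif1a*, a carrier of synaptic vesicle precursors, went from 11.1 to 27.3 CPM, a ratio of 2.47 (2.18 to 2.80), and *Kif1b* from 35.2 to 80.6 CPM, a ratio of 2.29 (2.14 to 2.46). The intervals of *Kif1a* and *Kif1b* overlapped, and both lay below those of *Kif13a*, *Kif16b*, *Kif13b* and *Kif1c*.

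Among the other transport motors, paralogues were compared in pairs. *Kif21b*, a kinesin-4 that limits microtubule growth, went from 25.9 to 123.2 CPM, a ratio of 4.75 (4.40 to 5.13), while *Kif21a* went from 6.45 to 16.2 CPM, a ratio of 2.51 (2.13 to 2.96). Of the conventional kinesin-1 heavy chains, *Kif5c* went from 4.86 to 20.5 CPM, a ratio of 4.21 (3.53 to 5.05), and *Kif5a* from 2.53 to 4.71 CPM, a ratio of 1.86 (1.42 to 2.47). Within both pairs the intervals did not overlap. *Kifc3*, a minus-end motor of epithelial transport, went from 28.6 to 53.8 CPM, a ratio of 1.88 (1.74 to 2.04).

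A last group of 3 genes belonged to no class. *Kif26a* and *Kif26b* encode kinesin-11 proteins known for roles in signalling. *Kif26a* went from 0.26 to 2.44 CPM, a ratio of 9.40 on 8 input reads, and *Kif26b* from 0.55 to 3.29 CPM, a ratio of 5.96 (3.57 to 10.6) on 17. With the pseudocount their recoveries were 1.45 and 1.47, so their place among the members depended on it. *Kif1bp*, a protein that binds kinesin motor domains and keeps them off microtubules, went from 27.8 to 45.8 CPM, and its ratio of 1.65 (1.52 to 1.79) was the lowest of all members.

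**Figure D3:**
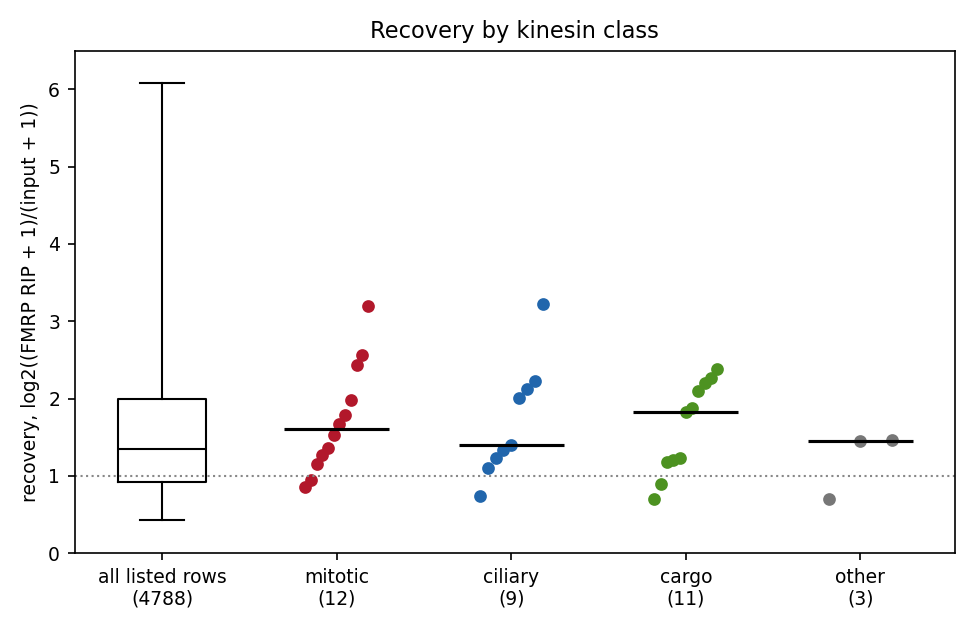
Recovery of the kinesin genes by class (points, with the class median as a bar) beside all 4788 listed rows (box from quartile to quartile with the median, whiskers to the lowest and highest value), with a dotted line at the limit of 1. The classes cover much the same range, with medians of 1.60 for mitotic, 1.40 for ciliary and 1.83 for cargo kinesins beside 1.35 for all listed rows.

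Set side by side, the classes overlapped. Recovery was above 1 for 10 of 12 mitotic, 8 of 9 ciliary and 9 of 11 cargo kinesins, beside 70.1% of all listed rows. It ran from 0.85 to 3.20 in the mitotic, from 0.74 to 3.23 in the ciliary and from 0.69 to 2.38 in the cargo class. Class medians were 1.60, 1.40 and 1.83, and their order was not stable. When the dual-role genes *Kif3c* and *Kif2a* were moved, the first to the cargo class and the other out of the mitotic class, the medians were 1.53 for mitotic, 1.70 for ciliary and 1.53 for cargo kinesins. Genes are not replicates and no test between classes was made. Of 46 pairs of members of the same subfamily, 30 had counting intervals that did not overlap (65.2%), beside 362 of 549 pairs of different subfamilies (65.9%), so members of a subfamily were apart about as commonly as other kinesins.

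Across the 35 genes, Spearman's rho between the log2 ratio and the input CPM was -0.02, that between recovery and input CPM was 0.21, and that between recovery and gene span was 0.04. Over the listed rows the same values were -0.09, 0.25 and 0.16. The pseudocount enters recovery and not the log2 ratio. Input CPM is not divided by transcript length, and it is also the denominator of the ratio. All points share the same pair of libraries, and genes are not independent.

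Kinesin genes without a row were mostly short ones. The RefSeq annotation of GRCm38.p6 holds 48 protein-coding genes of this naming pattern, with *Kif1bp* under its newer symbol, and 35 of them were listed (72.9%). Over all protein-coding genes of the annotation, expressed in testis or not, 21.3% were listed. By class, 12 of 15 mitotic, 9 of 11 ciliary and 11 of 18 cargo genes had a row. All 4 kinesin-2 motor genes, all 4 kinesin-13 genes and all 3 kinesin-6 genes were listed. None of the 4 kinesin light chain genes, *Klc1*, *Klc2*, *Klc3* and *Klc4*, which link kinesin-1 to its cargo, was listed. The other genes without a row were *Kif5b*, *Kif28*, *Kifc2*, *Kif7*, *Kif19a*, *Kif22*, *Kifc1*, *Kifc5b* and *Kif12*. A gene without a row may have been unchanged, lower in the FMRP RIP or too low to test, and these were not analysed here. *Kifc1* and *Kifc5b* are also near-identical copies, between which reads can be split.

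The 13 unlisted kinesin genes spanned 8.41 to 50.2 kb with a median of 15.5 kb, and the 35 listed ones 2.27 to 404 kb with a median of 61.0 kb. Of the listed genes, 19 were longer than the longest unlisted one. Only *Kif2b* and *Kif20a* were shorter than the median unlisted gene. Split at the median span of the kinesin genes, 43.7 kb, 22 of 24 longer genes were listed (91.7%) and 13 of 24 shorter ones (54.2%). Over all protein-coding genes the same split gave 45.1% and 13.3%. This is a description, and no test was made. Span counts introns and is not transcript length, and the expression of unlisted genes was not analysed here.

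**Figure D4:**
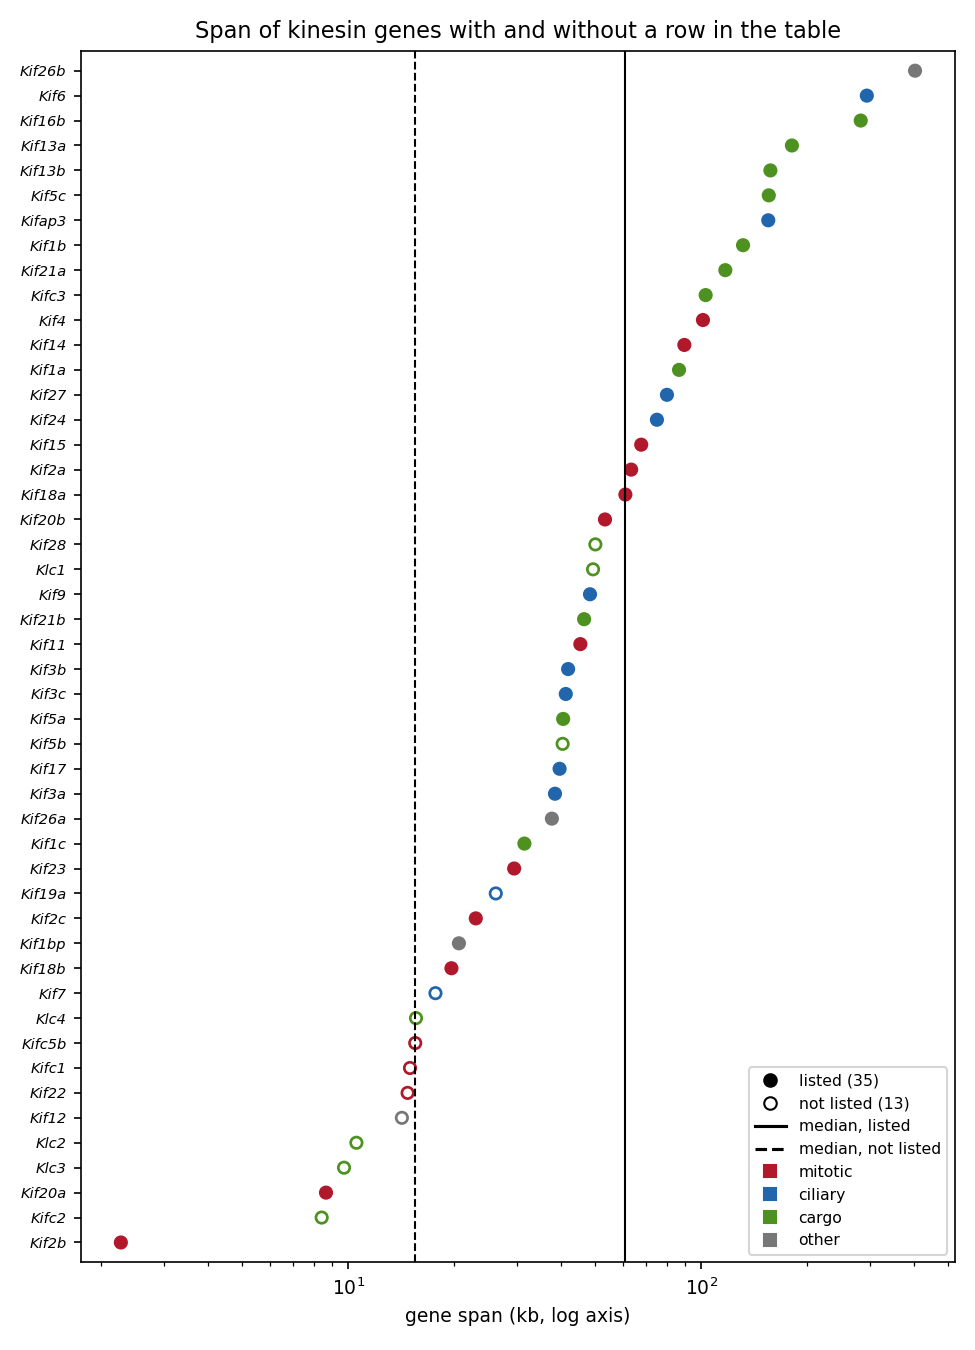
Gene span in kb on a log axis for the 48 kinesin genes of the RefSeq annotation, with filled points for the 35 listed and open points for the 13 without a row, coloured by class. The solid line marks the median of the listed genes (61.0 kb) and the dashed line that of the unlisted genes (15.5 kb), and the light chains lie among the open points.

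Kinesins that carry other symbols were both listed, with high values. *Cenpe*, the kinesin-7 motor of the kinetochore, went from 2.98 to 64.3 CPM, a ratio of 21.6 (17.5 to 26.9), and its recovery of 4.04 was above that of every gene of the naming pattern. *Stard9*, a giant kinesin-3, went from 42.5 to 399.8 CPM, a ratio of 9.41 (8.89 to 9.96) and a recovery of 3.20.

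Partners of the motors were covered in part. Of 19 cargo adaptors and microtubule-side partners 10 had a row (52.6%, beside 21.3% of all protein-coding genes). Of these, 8 had a recovery above 1 (80%, beside 70.1% of all listed rows), and their median was 1.98. *Spag9*, a JNK-interacting adaptor of kinesin-1 also known as JIP4, went from 24.6 to 134.9 CPM, a ratio of 5.49 (5.08 to 5.93). Of the mitochondrial adaptors, *Trak2* had a ratio of 6.24 (4.96 to 7.93) and *Trak1* one of 3.82 (3.52 to 4.13), and their anchor *Rhot1* had one of 4.90 (4.57 to 5.26). The interval of *Trak1* lay below those of *Trak2*, *Rhot1* and *Spag9*. *Map7d3*, which recruits kinesin-1 to microtubules, had the highest recovery of the list, 3.41, from 0.88 to 18.9 CPM, and *Map7d2* the lowest, 0.65, from 0.58 to 1.48 CPM. Of 9 partners of spindle kinesins 5 were listed (55.6%), 3 of them with a recovery above 1 (60%), and the median was 1.12, led by *Prc1*, the partner of *Kif4*, at 2.01, with *Ect2* lowest at 0.76. *Racgap1*, which forms centralspindlin with *Kif23*, had no row.

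Cytoplasmic dynein carries cargo in the opposite direction, and intraflagellar transport trains are what kinesin-2 pulls. For cytoplasmic dynein and dynactin, 6 of 28 genes were listed (21.4%), near the 21.3% of all protein-coding genes, and 4 of the 6 had a recovery above 1 (66.7%), near the 70.1% of all listed rows. Their median was 1.198, below the 1.35 of all listed rows, from 0.62 for *Bicd1* to 2.98 for the motor heavy chain *Dync1h1*. For intraflagellar transport, 12 of 28 were listed (42.9%), 10 with a recovery above 1 (83.3%), and the median was 1.45, from 0.69 for *Ift57* to 2.38 for *Wdr60*. Besides train proteins, this list holds genes of the retrograde dynein motor, *Wdr60* and *Dync2h1* (1.23) among them. After *Wdr60*, the highest were *Ift74* (2.04) and *Ift81* (1.97), which form the tubulin-binding module, and *Kif3a* stood at 2.01. The remaining listed genes of intraflagellar transport lay lower, from 1.62 for *Ift122* down to 0.69 for *Ift57*. No difference between these lists and the kinesins was tested.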

How the data were processed

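RIP-seq of mouse testis comprised 1 input and 1 FMRP RIP library, grouped by their labels. Per the labels, STAR and mm10 (GRCm38) were used, and the counting tool is not given in the sources used here. The authors deposited CPM values of genes called higher with edgeR, and their fold change and p-value columns were not used. All values were whole multiples of 0.01 read, which gave the library totals. Whole reads (tolerance 0.005) made up 78.4% of input and 78.8% of FMRP RIP values above 0, and 10 of the 35 kinesin genes held fractions of reads, so no count test was used. Per read, the input gave 0.0324 CPM, and the FMRP RIP gave 0.0274 CPM. Reads without molecular identifiers are not independent molecules.

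Members followed the symbol pattern and all are named, and other genes came from lists by function. Members and lists were chosen with earlier results of these data known. Of the 4788 rows, 4717 were matched to RefSeq by symbol or by a single synonym, and all 35 members overlapped their RefSeq position. Levels per coding length and coding-sequence motifs were not analysed here. Alternatives were pseudocounts below 1 CPM, of 5 CPM or none, a minimum of 1 CPM, 2 rescalings, moved dual-role genes, motors only, and summed *Kif11* rows, the last chosen after seeing the data. Functions were tested on simulated libraries. Tools were scipy 1.17.1 under Python 3.11.15, with pandas 2.3.3, numpy 2.4.6 and, for plots, matplotlib 3.10.9.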

Additional observations from a re-analysis of the deposited data

How the results depend on the processing

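The number of kinesin genes with a recovery above 1 was 29, beside 70.1% of all listed rows. It was 24 at a pseudocount of 5 CPM and 35 when libraries were scaled on reads of unlisted genes, within 1.5 times of 29 in every alternative except scaling to the listed genes. That scaling gives listed genes the same sum in both libraries and shifts every log2 ratio by -1.96. It left 2 members above 1, of which 1 was mitotic, 1 ciliary and 0 cargo, with medians of -0.051 for all members, -0.11 for mitotic, -0.50 for ciliary and 0.040 for cargo kinesins. Plain log2 ratios all move by this shift, but with the pseudocount the recoveries of low genes move less. *Kif27* went from 3.23 to 1.27 and *Kif26a* from 1.45 to 0.37. This scaling lowers all listed rows, and their share below 0 was not analysed here. It put 19 of the 35 members below 0. Of these, 13 had a recovery above 1 before it: *Kif1a* (-0.59), *Kif21a* (-0.53), *Kif1b* (-0.74), *Kif24* (-0.51), *Kif9* (-0.62), *Kifap3* (-0.71), *Kif6* (-0.69), *Kif2c* (-0.16), *Kif14* (-0.047), *Kif18a* (-0.20), *Kif18b* (-0.53), *Kif4* (-0.051) and *Kif20a* (-0.78). The other 6 were *Kifc3*, *Kif5a*, *Kif3c*, *Kif20b*, *Kif11* and *Kif1bp*. Scaling on unlisted genes multiplies the FMRP RIP by 1.92 and gave medians of 2.33 for all members, 2.50 for mitotic, 2.33 for ciliary and 2.73 for cargo kinesins. The alternatives change the other listed rows too, and their share above 1 is given for the main setting only.

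With a pseudocount of 5 CPM the medians were 1.24, 1.19, 1.31 and 1.36 for all, mitotic, ciliary and cargo kinesins, so the mitotic class was lowest. With none they were 1.86 for all, 1.83 for mitotic, 1.43 for ciliary and 2.01 for cargo kinesins. The pseudocount below 1 CPM gave 1.79 for all. Moving *Kif3c* and *Kif2a* gave 1.70 for ciliary and 1.53 for cargo kinesins, and with motors only, without *Kifap3* and *Kif1bp*, the ciliary median was 1.70 too. Moves of single recoveries were set against the distance from the gene's log2 ratio to either limit of its counting interval. Of the 35, 22 moved by more than that with a pseudocount of 5 CPM, 4 with none and 3 with the one below 1 CPM. Leaving out *Kifc1* and *Kifc5b* was not run, as neither is listed. Summing the *Kif11* rows, chosen after seeing the data, moved none of these counts or medians. No paired analysis was possible because the labels give 1 library a group. Depth limits the 6 members with under 100 input reads most.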
